A study of Drosophila melanogaster with 9 samples.

Results

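The genes described here are those whose product the authors' deposited tables call secreted, extracellular or secreted enzyme, in pupal retinas and optic lobes of Drosophila melanogaster. For a gene in several tables the word was read from the first table in number order. Of 67 such genes, 18 were left out by name, among them Imp, serpin, odorant binding, chitin-related and Nimrod C genes, which left 49 of the 904 distinct genes in the tables. The word was secreted for 34 of them, extracellular for 14 and secreted enzyme for 1. All 49 are annotated as protein-coding.

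The study asked how gain or loss of Blimp-1, an ecdysone-induced zinc finger repressor, changes gene expression at 48 h after puparium formation. Overexpression animals had the genotype lGMR GAL4>UAS Blimp-1, RNAi animals lGMR GAL4>Blimp-1 RNAi and control animals lGMR GAL4/+, so that all carried the driver and controls carried no UAS insert. Each group had 3 biological replicates, all aged at 25 °C, and p-values measure the spread between these. The driver is active in the developing eye, and retinas and optic lobes were extracted together, so the tissues cannot be told apart. The labels state neither how many animals went into a library nor which RNAi line was used.

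Secreted proteins pass through the endoplasmic reticulum and act outside the cell that makes them. In the pupal eye such proteins carry signals between photoreceptors, their support cells and optic lobe neurons, and they form the basement membrane and the apical matrix from which lens and bristle cuticle are built. Others circulate in the hemolymph, where they carry iron and lipids or take part in immunity.

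A normalized count is the number of reads of a gene divided by 1 factor per library. A gene entered the tables at an adjusted p under 0.05 and a log2 fold change of 1 or more in either direction, so being listed is how the genes were chosen and not a finding about them. The largest adjusted p of the authors among the genes described here was 0.00933, so the limit in use may have been stricter. A gene absent from a comparison's tables has no values there. In the text, a fold is the ratio of group means, and a log2 fold change ± SE comes from limma on log2(normalized count + 1), fitted over all genes of the comparison's tables. In that fit all 373 genes of RNAi and all 710 of overexpression passed an adjusted p of 0.05, which is 100% in both, so the pass itself carries no information. The 3 altered and 3 control libraries did not overlap in 100% of the 373 genes and 99.7% of the 710. Groups that lie apart are therefore no trait of the genes described here. In bulk RNA, fewer cells of a type and less RNA per cell cannot be told apart.

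Blimp-1 itself was 20.3-fold higher in overexpression, at 23252, 9467 and 18277 normalized counts against 874, 888 and 748 in control libraries, and had no entry for RNAi. A fall of Blimp-1 RNA in the RNAi libraries is therefore not shown by these data. The genes described here held 56862 to 93164 recovered reads per overexpression library against 30265 to 58706 per control library over 37 genes. Over 25 genes they held 23385 to 36697 per RNAi library against 28402 to 54400 per control library. These reads are not scaled for depth, and the size factors ran from 0.784 (overexpression replicate 2) to 1.49 (control replicate 1). Differences between libraries in these sums therefore include depth. Overexpression replicate 2 and control replicate 1 stood apart from their groups. Each lay at least as far from the nearer of the other 2 libraries as these lay from each other in 56.3% of 677 and 52.7% of 773 listed genes with a mean of at least 20, against 20.4% to 38.2% for the other 7 libraries. Among the genes described here, overexpression replicate 2 was the lowest library of its group for 19 of 37 and the highest for 15. The photoreceptor gene chp, the 1 listed photoreceptor marker of 17 in RNAi, had 8467 to 17427 normalized counts in RNAi and 25179 to 28494 in control libraries. In overexpression 9 of these 17 markers were listed, 6 higher and 3 lower, and 4 of 9 glia markers were listed, all higher. Of 9 cone and pigment cell markers, bw, santa-maria and w were higher in overexpression, summing to 37094 to 52047 normalized counts against 15407 to 19187 in control libraries. In RNAi cn and st were lower, at 1628 to 2441 against 9611 to 10975 in control libraries. Of 9 muscle markers Zasp66 was higher in overexpression, and of Zasp52 and sls 1 was higher and 1 lower in RNAi. The part of these cells in the results was not tested. Markers that were not listed have no values here, so the tissue could be checked only by listed ones.

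Of the 49 genes, 25 were listed in RNAi, 37 in overexpression and 13 in both. In RNAi 17 of 25 (68.0%) were higher, against 49.3% of all listed genes, and 8 were lower, against 50.7%. In overexpression 29 of 37 (78.4%) were higher, against 72.4% of all listed genes, and 8 were lower, against 27.6%. In the authors' deposited table the median size of the log2 fold change was 1.72 for the 17 higher in RNAi and 1.80 for the 29 higher in overexpression, against 1.77 and 1.89 over all higher genes. For the 8 lower ones it was 1.25 in RNAi and 1.29 in overexpression, against 1.64 and 1.46 over all lower genes. A log2 fold change of 2 or more in size was reached by 7 of the 25 in RNAi (28.0%), against 38.9% of all listed, and by 13 of the 37 in overexpression (35.1%), against 40.3%. By role, 11 genes were grouped as signalling ligands, with tsl, needed to activate a receptor, counted among them. Another 2 encode proteins that bind a ligand or compete for one, 8 belong to matrix or cuticle and 4 to the yellow family. A further 7 were grouped under hemolymph and lipids, among them the phospholipase gene sPLA2. No role is stated here for the other 17.

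**Figure D1:**
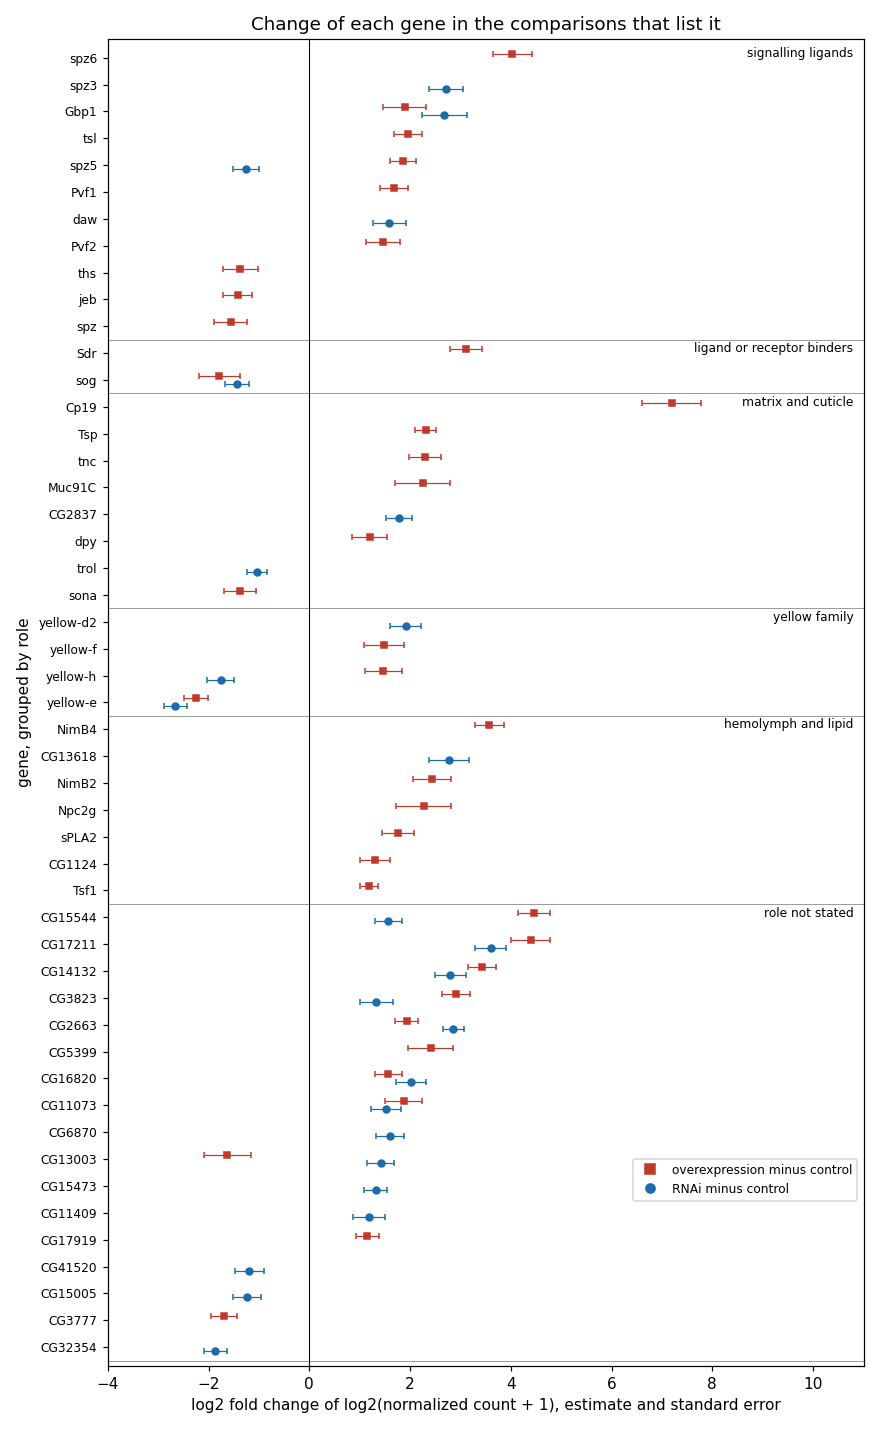
Each point is the log2 fold change of 1 gene with its standard error, on log2(normalized count + 1), with overexpression as red squares and RNAi as blue circles, each minus control, and genes grouped by role. The group of signalling ligands, which includes tsl, lies on both sides of 0, while all 6 points of overexpression in the hemolymph and lipid group lie above it.

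The Spätzle family of Toll ligands changed member by member. Spätzle proteins are cystine-knot growth factors, related to nerve growth factor in fold, that are cut by proteases before they bind Toll receptors. Of 4 listed members, spz6 rose in overexpression, spz3 rose in RNAi, spz fell in overexpression, and spz5 fell in RNAi and rose in overexpression.

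The gene spz6 (dm6 2R 24757378 to 24760466) had 3716, 3428 and 2883 normalized counts in overexpression libraries, against 113, 199 and 368 in control libraries. It was 14.8-fold higher, a log2 fold change of 4.03 ± 0.38, with an adjusted p of 3.17e-22 in the authors' deposited table. Every overexpression library was far above every control library, and the control libraries themselves spread over a wide range. The gene spz5 (dm6 3L 2883641 to 2892166), also known as a neurotrophin gene of the fly nervous system, had 508, 375 and 486 normalized counts in overexpression libraries. It had 56.7, 43.7 and 55.3 in RNAi libraries, against 136, 115 and 121 in control libraries. The groups did not overlap, with overexpression on top, control between and RNAi at the bottom. The log2 fold change of spz5 was 1.86 ± 0.25 in overexpression and -1.25 ± 0.26 in RNAi. Set directly against RNAi, overexpression was higher by 3.11 ± 0.26 on the log2 scale (limma, adjusted p = 7.35e-09 over the 179 genes listed in both comparisons).

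The level of spz3 was 63.2, 32.8 and 36.6 normalized counts in RNAi libraries, against 4.03, 8.64 and 4.99 in control libraries, 7.51-fold higher. No control library reached 10 normalized counts, and all RNAi libraries were above them. The founding member spz, whose product is the ligand of Toll in embryonic patterning and immunity, had 55.6, 40.8 and 87.8 normalized counts in overexpression libraries, against 187, 152 and 185 in control libraries. All 3 overexpression libraries were below the lowest control library, and the gene was 2.84-fold lower.

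Proteases that act ahead of Spätzle were listed as enzymes, ea as extracellular in the overexpression tables, and are outside the 49 genes. On a list of 27 names or name patterns of serine proteases and their homologs, 9 genes were listed in overexpression and all 9 were higher, and 3 were listed in RNAi and all 3 were higher. Of all listed genes 72.4% were higher in overexpression and 49.3% in RNAi. Their median log2 fold change was 3.47 for the 9 and 2.49 for the 3, by the authors' deposited table. Over all higher genes the median was 1.89 in overexpression and 1.77 in RNAi. The list was chosen with earlier results of these data known and covers only the names on it, so these counts are no test. SPE and ea encode enzymes that cut Spätzle, and modSP, grass, psh and Hayan encode proteases upstream of SPE. In overexpression psh was 63.0-fold higher, at 505, 514 and 401 normalized counts against 0.670, 14.4 and 7.48 in control libraries, and 116.2-fold without control replicate 2. Hayan was 32.5-fold, ea 18.2-fold, modSP 4.22-fold and grass 3.60-fold higher in overexpression. SPE was 12.5-fold higher, at 124 ± 31.2 normalized counts in overexpression against 9.92 ± 7.30 in control (SD, n = 3), and 20.2-fold without control replicate 3. In RNAi, Hayan was 8.02-fold and ea 4.51-fold higher. The other listed names were Ser7, Np and MP1 in overexpression and Np in RNAi.

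Ligands of receptor tyrosine kinases went both ways in overexpression. Pvf1 and Pvf2, ligands of the PDGF and VEGF type receptor Pvr, were higher, while jeb, ligand of Alk, and ths, a fibroblast growth factor for Heartless, were lower. In the fly eye, jeb made by photoreceptors is known to act on optic lobe neurons through Alk.

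Pvf1 (dm6 X 18832682 to 18842901) had 231, 171 and 189 normalized counts in overexpression libraries, against 65.2, 53.7 and 62.4 in control libraries. It was 3.26-fold higher, with an adjusted p of 4.20e-07 in the authors' deposited table. Pvf2 (dm6 2L 7069536 to 7084635) had 139, 77.8 and 137 in overexpression libraries, against 36.3, 35.5 and 52.4 in control libraries, 2.85-fold higher. Overexpression replicate 2 was the lowest of its group for both genes and was still above all control libraries. Their receptor gene Pvr, a cell surface gene outside the 49, was 2.46-fold higher in overexpression and 4.79-fold higher in RNAi. Its mean was 263 ± 78.4 normalized counts in overexpression and 511 ± 45.7 in RNAi, against 107 ± 11.2 in control (SD, n = 3 each). Neither Pvf1 nor Pvf2 was listed in RNAi.

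The gene jeb had 349.8, 189 and 364 normalized counts in overexpression libraries, against 896, 759 and 687 in control libraries, a log2 fold change of -1.42 ± 0.29. The values of ths were 312, 161 and 437 in overexpression libraries, against 814, 669.8 and 695 in control libraries, 2.39-fold lower. For both genes overexpression replicate 2 was the lowest of all 6 libraries, and no library of overexpression reached the control range. With a log2 fold change of -1.03 in the authors' deposited table, ths lay just inside the limit of the tables.

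Among the other signals, daw, an Activin-type ligand of the TGF-beta family, had 145, 89.8 and 126 normalized counts in RNAi libraries, against 30.2, 34.6 and 54.9 in control libraries. It was 3.01-fold higher and was not listed in overexpression. Gbp1, which encodes a growth-blocking peptide, an insect cytokine cut from a precursor, was higher in both genotypes. It had 93.8, 122 and 102 normalized counts in overexpression libraries and 122, 307 and 165 in RNAi libraries, against 14.1, 38.4 and 38.7 in control libraries. All 6 libraries of overexpression and RNAi were above the control libraries, and the RNAi libraries spread most. The gene tsl, whose product is needed for Torso activation in the embryo, had 671, 1000.2 and 619 normalized counts in overexpression libraries, against 167, 185 and 228 in control libraries, 3.95-fold higher. Over the list of 52 signalling ligand names, 8 genes were listed in overexpression, 4 higher and 4 lower, and 4 in RNAi, 2 higher and 2 lower. By the authors' deposited table their median log2 fold change was 0.14 in overexpression and 0.16 in RNAi. The 1 of them outside the 49 genes was fj, which encodes a Golgi kinase, 2.31-fold lower in overexpression and 2.70-fold lower in RNAi.

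The 2 genes for proteins that bind a ligand or stand in for a receptor moved apart. The gene sog (dm6 X 15603283 to 15633434) encodes the fly Chordin, which binds bone morphogenetic proteins outside the cell, and it fell in both genotypes. Its levels were 239, 77.8 and 224 normalized counts in overexpression libraries and 245, 164 and 216 in RNAi libraries, against 626, 463 and 599 in control libraries. Both altered groups lay wholly below control and overlapped each other, with the lowest value in overexpression replicate 2. Sdr encodes a secreted decoy of the insulin receptor that binds insulin-like peptides. It had 431, 381 and 448 normalized counts in overexpression libraries, against 35.6, 69.1 and 43.7 in control libraries, 8.50-fold higher with a log2 fold change of 3.11 ± 0.31. Sdr was not listed in RNAi. Over the list of 18 antagonist and modifier names or patterns, 4 genes were listed in overexpression, 2 in each direction, and 2 in RNAi, 1 in each direction. Beside sog and Pvr these were sha, 3.06-fold higher, and kek3, 2.40-fold lower, both in overexpression.

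Matrix genes were listed mostly in overexpression, which has more listed genes in all, 710 against 373 in RNAi. There 5 rose and 1 fell, near the 72.4% of all listed genes that were higher in overexpression. Tenectin and thrombospondin, encoded by tnc and Tsp, are integrin ligands of the extracellular matrix, and dpy encodes Dumpy, a giant apical protein that ties epithelia to cuticle. The gene tnc (dm6 3R 24984384 to 25022867) had 6142, 2628 and 5897 normalized counts in overexpression libraries, against 1015, 845 and 941 in control libraries. Overexpression replicate 2 held fewer than the other 2 libraries of its group and more than any control library. The gene was 5.24-fold higher. Tsp (dm6 2L 6686791 to 6709086) was 5.02-fold higher, at 4669, 3178 and 4417 in overexpression libraries against 867, 812 and 766 in control libraries. Its control libraries lay close together, and the groups did not overlap. The adjusted p of Tsp was 4.45e-22 in the authors' deposited table.

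The levels of dpy were 5896, 2249 and 5009.6 normalized counts in overexpression libraries, against 2249, 1525 and 1597 in control libraries. Overexpression replicate 2 and control replicate 1 all but met, at 2249.17 and 2249.18, and dpy was the 1 gene of the 37 whose groups touched. Of all 710 listed genes, 99.7% had groups that did not overlap. The gene was 2.45-fold higher and had a log2 fold change of 1.02 in the authors' deposited table, just inside the limit. Muc91C, for a mucin, had 4211, 2284 and 2673 normalized counts in overexpression libraries, against 1483, 243 and 665 in control libraries. Its fold of 3.84 became 6.73 without control replicate 1, the highest of the 3 control libraries. The eggshell gene Cp19 (chorion protein 19, dm6 3L 8729865 to 8730604) had 251, 333 and 143 normalized counts in overexpression libraries, against 0, 2.88 and 0 in control libraries. That is 676 reads in overexpression and 3 in control, the 3 all in 1 library, a ratio of 262.5 (95% exact interval 89.4 to 1276, counting error only).

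Matrix genes that fell were 1 in each genotype. The basement membrane gene trol (dm6 X 2470460 to 2545427), for the heparan sulfate proteoglycan perlecan, had 1542, 1269.6 and 1363 normalized counts in RNAi libraries, against 3448, 2451 and 2759 in control libraries. It was 2.07-fold lower with a log2 fold change of -1.01 in the authors' deposited table, the closest of all 25 to the limit. The gene sona, for an ADAMTS metalloprotease of the matrix, had 724, 343 and 579 in overexpression libraries, against 1847, 1149.7 and 1208 in control libraries, 2.55-fold lower. In RNAi, CG2837 was 3.45-fold higher, at 338, 444 and 311 normalized counts against 98.1, 128 and 91.1 in control libraries. The annotation names it snsl, which encodes a cuticle protein of the water barrier. Over the list of 29 basement membrane and matrix names, trol was lower and Timp higher in RNAi, and Timp and pio were higher in overexpression. That list holds dpy as dp, which the match by the authors' symbols missed. Timp, for an inhibitor of matrix metalloproteases, was 11.7-fold higher in overexpression and 4.69-fold higher in RNAi, and pio, for a zona pellucida protein, was 25.5-fold higher in overexpression. Of 5 markers of trachea, a tube lined with cuticle, 3 were lower in overexpression, summing to 8318 to 9650 normalized counts against 24851 to 39496 in control libraries. In RNAi 2 of the 5 were higher, at 50781 to 64153 against 20713 to 31607 in control libraries. These were Gasp and verm in both comparisons and serp in overexpression, and their part in the matrix changes was not tested.

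The 4 listed members of the yellow family did not move together. These genes are relatives of yellow, whose secreted product is needed for black melanin in cuticle. The gene yellow-e (dm6 3R 13409543 to 13415286) fell in both genotypes. It had 1183, 1200.5 and 1113 normalized counts in overexpression libraries and 1012, 913 and 741 in RNAi libraries, against 7352, 4374 and 5338 in control libraries. It was 4.88-fold lower in overexpression and 6.40-fold lower in RNAi, and every altered library was far below control.

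The gene yellow-h (dm6 4 227922 to 230428) had 1653, 4037 and 2275 normalized counts in overexpression libraries. It had 261, 248 and 282 in RNAi libraries, against 605, 959.7 and 1224 in control libraries. RNAi libraries were all at the bottom and close together, and overexpression libraries were all at the top and spread widely, with replicate 2 the highest. Set against RNAi, overexpression was higher by 3.23 ± 0.32 on the log2 scale (limma, adjusted p = 6.57e-08). An annotated antisense RNA overlaps 12.1% of the exons of yellow-h, and whether reads were counted by strand is not stated. The gene yellow-d2 was 3.87-fold higher in RNAi, at 1448, 1153 and 659 normalized counts against 203, 335 and 304 in control libraries. The gene yellow-f, whose product is known as a dopachrome conversion enzyme, was 2.90-fold higher in overexpression, at 77.4, 153 and 79.7 against 23.5, 42.2 and 41.2 in control libraries. How reads shared between related genes were counted is not stated either.

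Genes of hemolymph proteins, lipid carriers and a secreted phospholipase were higher where listed. These were 6 of 6 in overexpression and 1 of 1 in RNAi, against 72.4% and 49.3% of all listed genes. Tsf1 encodes transferrin, the iron carrier of hemolymph. It had 29576, 25825 and 21627 normalized counts in overexpression libraries, against 10853, 10820.1 and 11757 in control libraries, 2.30-fold higher. Its control libraries were nearly level, and the lowest overexpression library was well above them. On the list of 24 hemolymph names or patterns, 3 genes were listed in overexpression, all higher, and 1 in RNAi, higher. The 1 outside the 49 genes was Tsf3, another transferrin gene, 6.32-fold higher in overexpression and 3.97-fold higher in RNAi. Names were matched by the authors' symbols. CG1124 and CG13618, described below, have Jhbp names of that list in the annotation and were not counted in it.

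NimB4 and NimB2 encode secreted Nimrod proteins, a family known for the uptake of bacteria and dead cells. NimB4 (dm6 2L 13968280 to 13969976) had 401, 369 and 290.0 normalized counts in overexpression libraries, against 34.9, 29.8 and 22.5 in control libraries, 12.2-fold higher. NimB2 (dm6 2L 13965012 to 13967018) had 150.3, 171 and 100.1 in overexpression libraries, against 28.2, 15.4 and 33.7 in control libraries, 5.45-fold higher. The genes lie 1262 bases apart on the same strand, and the groups did not overlap for either. Of 15 hemocyte markers, 4 were listed in overexpression (srp, NimC2, NimC3 and NimC4), all higher. Their sum was 937 to 1528 normalized counts in overexpression libraries and 224 to 317 in control libraries. Of 9 fat body markers 2 were listed, Mal-B2 and Tsf1 itself, both higher. They summed to 21656 to 29613 normalized counts in overexpression libraries and 10824 to 11763 in control libraries. Of these sums Tsf1 alone made 21627 to 29576 and 10820 to 11757, so they show mainly Tsf1 and hide the rise of Mal-B2. No marker of these lists was at 0 in a group, none was listed in RNAi, and the part of these cells in the changes of NimB2, NimB4 and Tsf1 was not tested.

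The other members of this group have to do with lipids. Npc2g, of the sterol-binding NPC2 family, had 33.7, 63.8 and 28.6 normalized counts in overexpression libraries, against 11.4, 2.88 and 11.2 in control libraries. Its groups did not overlap, and control replicate 2 held 3 reads. The secreted phospholipase gene sPLA2 was 3.51-fold higher, at 125 ± 30.9 normalized counts in overexpression against 35.7 ± 5.80 in control (SD, n = 3). CG1124 and CG13618 carry the names Jhbp1 and Jhbp12 in the annotation, of a family named for juvenile hormone binding. CG1124 was 2.47-fold higher in overexpression, at 1662, 3008 and 1908 normalized counts against 609, 1113 and 946 in control libraries. CG13618 was 8.09-fold higher in RNAi, at 28.8, 71.6 and 78.2 normalized counts against 10.1, 5.76 and 6.24 in control libraries.

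**Figure D2:**
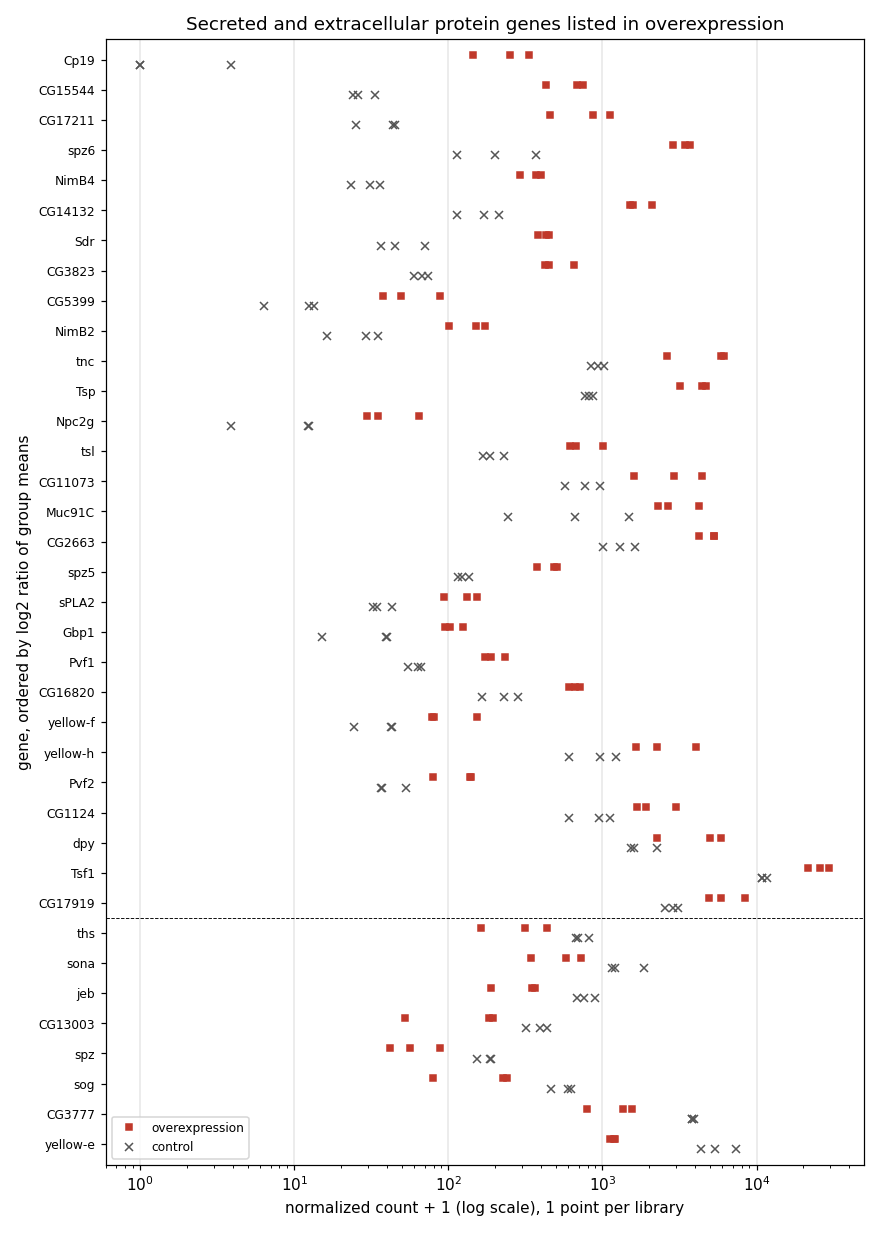
Normalized counts plus 1 of the 37 genes listed in overexpression, on a log axis, with 1 point per library, overexpression as red squares and control as grey crosses, ordered by the ratio of means. The 29 genes above the dashed line were higher and the 8 below it lower, and only for dpy do the groups touch.

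Of the 17 genes with no role stated, 8 were listed in both comparisons and 9 in 1 of them. Of those listed in RNAi alone, the largest fall was in CG32354 (dm6 3L 8415857 to 8422205), with 5515, 3951 and 6358 normalized counts in RNAi libraries against 17627, 20765 and 18479 in control libraries. It was 3.59-fold lower, and per exon length it was the most abundant of the 49 genes in control libraries, at 5831 normalized counts per kb. CG15005 was 2.27-fold lower, at 323, 171 and 186 normalized counts in RNAi libraries against 525, 459 and 559 in control libraries. CG41520 was 2.21-fold lower, at 465, 278 and 579 in RNAi libraries against 764, 1049.9 and 1105 in control libraries. In all of these the RNAi libraries lay below every control library, and groups were apart for 100% of the 373 genes listed in RNAi. CG6870 was 2.97-fold higher, at 577, 632 and 438 normalized counts in RNAi libraries against 124, 219.8 and 211 in control libraries. CG15473 was 2.43-fold higher, at 2138, 1923 and 1973 in RNAi libraries against 1112, 667 and 705 in control libraries. CG11409 was 2.22-fold higher, at 2182, 1183 and 1423 in RNAi libraries against 1034, 444 and 676 in control libraries. Replicate 1 was the highest of both groups for CG15473 and CG11409, and the groups of all 3 genes were apart. Of those listed in overexpression alone, CG3777 had 1348, 792 and 1546 normalized counts in overexpression libraries, against 3935, 3788 and 3836 in control libraries, 3.14-fold lower. Its control libraries lay close together, and all overexpression libraries were far below them. CG5399 was 5.83-fold higher, at 57.1 ± 26.4 normalized counts in overexpression against 9.79 ± 3.85 in control (SD, n = 3). CG17919 was 2.27-fold higher, at 6427 ± 1826 normalized counts in overexpression against 2836 ± 266 in control (SD, n = 3). It lies 6833 bases from Osi19, a listed gene that was 163.8-fold higher in overexpression. The gene SmD2 overlaps 11.3% of the exons of CG17919 on the opposite strand, and whether reads were counted by strand is not stated.

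**Figure D3:**
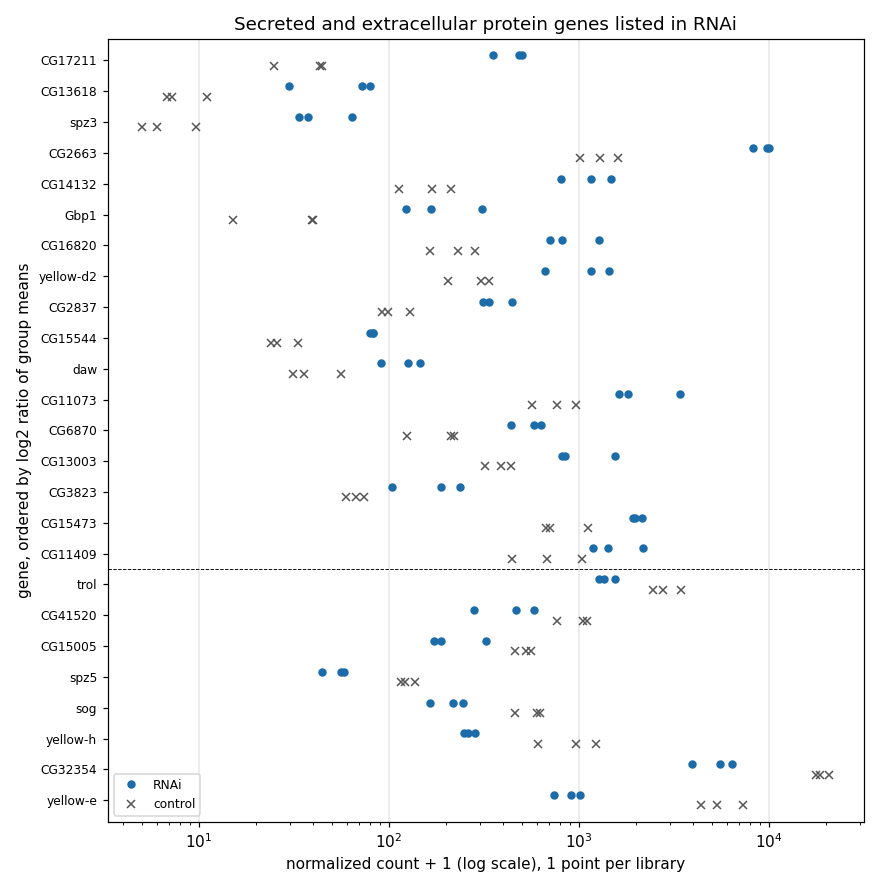
Normalized counts plus 1 of the 25 genes listed in RNAi, on a log axis, with 1 point per library, RNAi as blue circles and control as grey crosses, ordered by the ratio of means. The 17 genes above the dashed line were higher and the 8 below it lower, with the largest ratio in CG17211 and the largest fall in yellow-e.

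The 13 genes listed in both comparisons are 52.0% of the 25 in RNAi and 35.1% of the 37 in overexpression, against 48.0% and 25.2% for the 179 shared genes among all listed. Of the 13, 8 were higher in both, 2 lower in both, 2 lower in RNAi and higher in overexpression, and 1 the other way round. Over all 179 shared genes these counts were 78, 61, 27 and 13. Both comparisons use the same control libraries, so an error in a control library moves both. The authors' words differ between comparisons for 9 of the 13, and 7 of the 13 are called unknown in the overexpression tables, where CG17211 is called cell surface and spz5 extracellular. Those words were set aside, since the first table in number order gave the class. By the words of the overexpression tables, 7 of the 29 higher genes and 1 of the 8 lower would not be in the class. All of these are among the 13, so the rule itself adds to the share of 35.1%, which is no finding about secreted genes.

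Overexpression and RNAi were then set against each other for these genes, with all 9 libraries in 1 fit over the 179 shared genes. Of the 13, 6 passed an adjusted p of 0.05 (limma), 4 higher and 2 lower in overexpression. Among all 179 the share that passed was 63.7%, with 37.4% higher and 26.3% lower. Beside spz5 and yellow-h, the 2 that were higher were CG15544 and CG3823, which rose in both genotypes by different amounts. CG15544 (dm6 3R 30827819 to 30842034) had 681, 429.9 and 744 normalized counts in overexpression libraries and 79.0, 81.3 and 81.6 in RNAi libraries, against 24.9, 23.0 and 32.4 in control libraries. The 3 RNAi libraries were nearly level, and the 3 groups did not overlap. Overexpression was higher than RNAi by 2.88 ± 0.28 on the log2 scale (limma, adjusted p = 5.59e-08). CG3823 had 450.0, 654 and 424 in overexpression libraries and 102, 237 and 188 in RNAi libraries, against 72.6, 58.5 and 66.1 in control libraries. The 3 groups were apart here too, and overexpression was higher than RNAi by 1.59 ± 0.31 (limma, adjusted p = 2.38e-04).

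The 2 genes lower in overexpression than in RNAi were CG13003 and CG2663. CG13003 (dm6 X 16844807 to 16876544) had 182, 51.0 and 193 normalized counts in overexpression libraries and 1544, 809.6 and 845 in RNAi libraries, against 438, 319.6 and 389 in control libraries. It was the 1 gene of the 13 that rose in RNAi and fell in overexpression, and its groups did not overlap. The difference, overexpression minus RNAi, was -3.05 ± 0.41 on the log2 scale (limma, adjusted p = 3.06e-06). CG2663 had 5262, 5302 and 4222 in overexpression libraries and 9759.6, 9977 and 8263 in RNAi libraries, against 1014, 1295 and 1614 in control libraries. All altered libraries were above control, and the difference, overexpression minus RNAi, was -0.92 ± 0.24 (limma, adjusted p = 0.00256).

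The other 7 shared genes did not pass between overexpression and RNAi, which does not show that they act alike. CG17211 came closest. It had 870.0, 454 and 1119 normalized counts in overexpression libraries and 351, 483 and 503 in RNAi libraries, against 43.7, 24.0 and 42.4 in control libraries. It was 22.2-fold higher than control in overexpression and 12.2-fold in RNAi, and the difference between the genotypes was 0.79 ± 0.34 (limma, adjusted p = 0.0502, or 0.00644 to 0.25 over 15 alternatives). CG14132 had 1519, 2101 and 1586 in overexpression libraries and 1155, 1475 and 807 in RNAi libraries, against 112, 168 and 212 in control libraries, and differed between genotypes by 0.63 ± 0.30 (limma, adjusted p = 0.0751, or 0.0364 to 0.309). Gbp1 differed by -0.79 ± 0.39 (limma, adjusted p = 0.087, or 0.0267 to 0.377). Among fits that left out a replicate, CG17211 passed without overexpression replicate 2 and without control replicate 1, Gbp1 without RNAi replicate 1 and without control replicate 1, and CG14132 without RNAi replicate 2. The difference was -0.45 ± 0.28 for CG16820 (limma, adjusted p = 0.182) and 0.40 ± 0.25 for yellow-e (limma, adjusted p = 0.178). It was 0.35 ± 0.36 for CG11073 and -0.35 ± 0.36 for sog (limma, adjusted p = 0.417 for both). CG16820 had 662, 603 and 714 normalized counts in overexpression libraries and 1268, 818 and 699.8 in RNAi libraries, against 165, 283 and 229.5 in control libraries. CG11073, named flap in the annotation, had 4446, 1589.6 and 2912 in overexpression libraries and 3398, 1629 and 1812 in RNAi libraries, against 964, 769.6 and 568 in control libraries. For both genes the altered groups lay above control and overlapped each other.

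**Figure D4:**
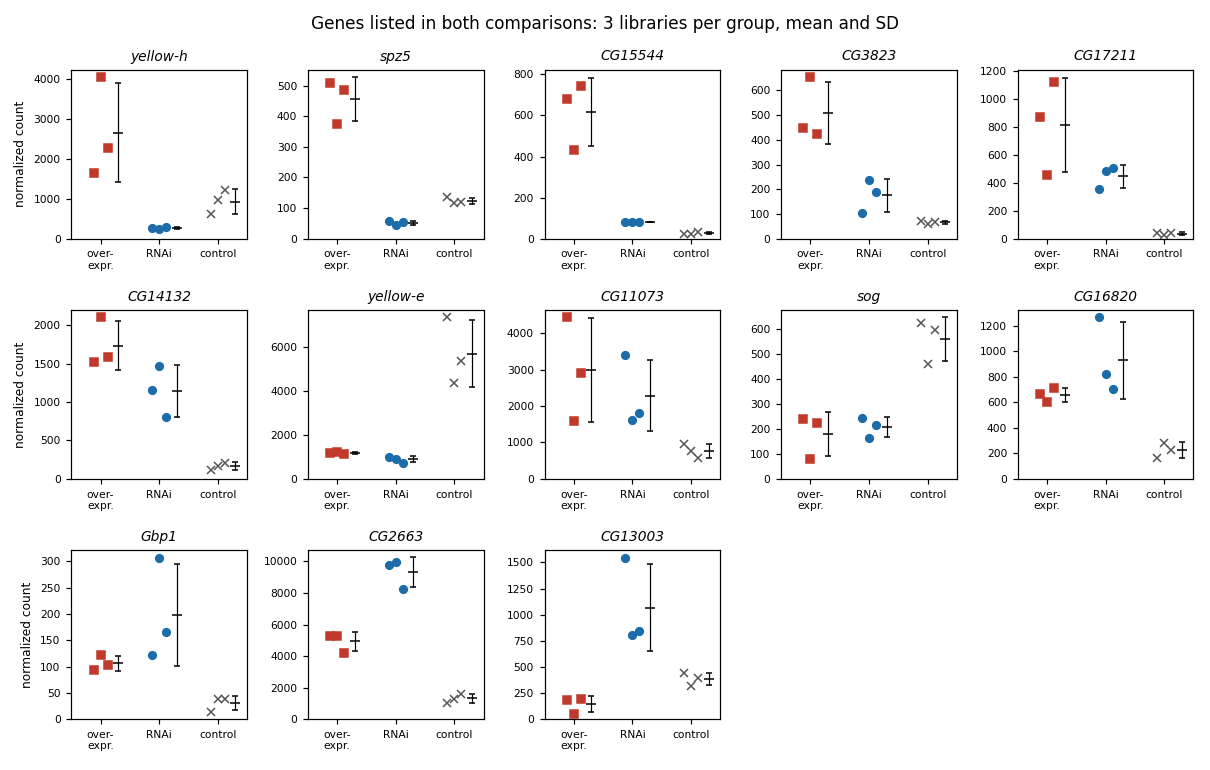
Normalized counts of the 13 genes listed in both comparisons, with 3 libraries each of overexpression (red squares), RNAi (blue circles) and control (grey crosses), the mean as a dash and its SD as a bar, each panel on its own linear axis from 0. Panels run from the highest to the lowest difference of overexpression minus RNAi, from yellow-h to CG13003.

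The stage at which a gene peaks in normal development stands beside it in the authors' deposited tables. Of the 23 higher genes of overexpression with a stage, 12 (52.2%) peaked before 2 d of pupal life, against 36.5% of all higher genes, and 5 (21.7%) peaked after it, against 45.7%. The early ones included Pvf1, Pvf2, Sdr, Tsf1, tnc, dpy and Gbp1. Of the 12 higher genes of RNAi with a stage, 4 peaked before 2 d, 3 at 2 d and 5 after it, which is 33.3%, 25.0% and 41.7%, against 36.4%, 25.8% and 37.9% of all higher genes. Of the 5 lower genes of RNAi with a stage, 4 peaked at 2 d, the age of the samples, against 68.6% of all lower genes, and yellow-e at 3 d. Among the 8 lower genes of overexpression 4 had a stage, with CG3777 and spz at the 12 h prepupa and sona and CG13003 at 3 d, and none at 2 d, against 46.8% of all lower genes. Stage cells were blank for many genes of the ligand group, among them daw, spz3, spz5, jeb, ths and tsl. These shares are descriptions of few genes, with no test.

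For RNAi, 16 of the 25 genes (64.0%) carried a mark for a Blimp-1 site, against 42.4% of all 373 listed, and 7 (28.0%) carried one for a Slbo site, against 34.3%. Marks are written in upper or lower case, with no key, and were pooled. In upper case alone they stood for a Blimp-1 site in 13 of the 25 (52.0%), against 37.8% of all 373, and CG13003, CG11073 and CG2663 had the lower case mark. Blimp-1 marks were given for 11 of the 17 higher and 5 of the 8 lower genes. The marked genes included spz3, spz5, CG17211, CG14132, CG2663 and trol, while daw, Gbp1, sog, yellow-e and yellow-h had none. How sites were assigned is not stated, these shares were not tested, and the overexpression tables have no such column.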

How the data were processed

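The authors deposited 4 tables of called genes, 1 for each genotype and direction, made from stranded mRNA libraries of 250 ng of total RNA per the labels. Per the submitters' processing notes, the build was dm6 and the tools were DESeq2, Subread 1.6.3, STAR 2.6.1d, bedtools 2.26.0 and Picard 2.18.20. Their roles are not stated. Per the file headers, each row holds normalized counts per library (a signal scaled by 1 factor per library), a log2 fold change of control over altered genotype, turned round here, and the authors' adjusted p-value. In the deposited tables, values of up to 500 reads were whole multiples of 1 step per library within 0.02 reads in 100% of cases, which gave whole reads and size factors. Listed genes held 954516 to 2306340 of these reads per library, and the depth over all genes is unknown.

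limma 3.58.1 (R 4.3.3) was fitted with a mean-variance trend to log2(normalized count + 1), with Benjamini-Hochberg adjustment over all genes of a comparison's tables (373, 710 or the 179 in both). It runs on genes that the authors had selected, so its p-values against control are no independent evidence. With 3 against 3 libraries an exact permutation test cannot go below 0.1. Fits with edgeR 4.0.16 and DESeq2 1.42.0 on recovered reads, other pseudocounts (0.5 and 5), a mean of at least 20 normalized counts, a replicate block and leaving out each library were alternatives. DESeq2 was fitted to the data only against control, not between overexpression and RNAi. The scripts were tested on simulated data. Intervals of read counts cover counting error only. Coordinates are from the Ensembl annotation BDGP6.54, which uses dm6 coordinates. Of the 49 genes, 13 shared some exon bases with another annotated gene, on the opposite strand but for trol and part of sPLA2, by at most 12.1% of exon length.

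The genes and the lists were chosen with earlier results of these data known. By rule the text names each gene in both comparisons, per comparison and direction the 8 largest changes (at a mean of 20 normalized counts or more) and the 3 highest means, and listed members of the lists. CG11409, CG6870, CG2837, dpy, CG1124, sPLA2, tsl, Tsp, tnc, NimB2 and CG5399 fell outside it and are named to account for every gene. Lists were matched by the authors' symbols, so dpy (dp on a list) and CG1124 (Jhbp1 in the annotation) were missed by them.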

Additional observations from a re-analysis of the deposited data

How the results depend on the processing

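Against control, all 25 genes of RNAi and all 37 of overexpression kept direction and stayed past an adjusted p of 0.05 under every alternative, with edgeR, DESeq2, other pseudocounts, no trend and the filter on low values. Leaving out each replicate in turn gave 25 to 25 genes in RNAi and 37 to 37 in overexpression. Since the genes had been selected on these libraries, this shows little. A limit of 2 on the size of the log2 fold change in the authors' deposited tables left 6 higher and 1 lower gene in RNAi. In overexpression it left 12 higher and 1 lower. An adjusted p under 0.01 could remove none, as the largest was 0.00933, so it was no stricter check. Reading the function word from the overexpression tables alone kept 22 of the 29 higher genes and brought in 3 others (25 in all), and it kept 7 of the 8 lower genes and brought in 1. Between overexpression and RNAi, 6 of 13 genes passed, 7 with a pseudocount of 5, 7 with the filter on low values and 8 with edgeR, and 6 to 8 when a replicate was left out. The same 6 passed in each of 15 alternatives, and CG17211 passed in 6, Gbp1 in 4 and CG14132 in 2 of them. Leaving out a replicate moved the difference of CG11073 between -0.0033 (without overexpression replicate 1) and 0.74, and that of sog between -0.63 and 0.17 (without overexpression replicate 2), and the cause was not tested. With the replicate number as a block, 25 and 37 genes passed against control and 9 of 13 between genotypes, with Gbp1, CG14132 and CG17211 added. Same-numbered libraries correlated in their deviations at 0.331, 0.075 and 0.056 for RNAi and 0.464, 0.224 and -0.046 for overexpression, and not every library correlated best with its own number, so the numbers were not taken as pairs. Few reads limit spz3, CG13618, Npc2g and Cp19 most.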

Other observations

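Levels between genes can be compared only per length. Per kb of exon, the control libraries held the most normalized counts in CG32354 (5831), Tsf1 (3905), CG17919 (3645) and yellow-e (3085), and the fewest in Cp19 (1.48), spz3 (2.31) and CG5399 (6.33). Among signalling ligands spz5 lay at 62.1, Pvf1 at 21.7, jeb at 75.2 and daw at 12.2 normalized counts per kb.

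Neuropeptide and guidance genes had no listed gene in either comparison. None of 32 neuropeptide names and none of 12 guidance and synapse names or patterns, among them the Slit, Netrin and secreted Semaphorin genes, was listed, so they have no values here. Of 31 names or patterns of antimicrobial and immune effectors, GNBP2 was higher in both genotypes, 8.01-fold in overexpression and 19.0-fold in RNAi. In RNAi LysX was 4.60-fold higher and Tep3, for a thioester protein, 9.73-fold lower. The cuticle gene TwdlE, of the Tweedle family, was 4.47-fold higher in RNAi.

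Some of the genes have a listed gene within 10 kb. This held for 10 of 37 in overexpression and 1 of 25 in RNAi. A neighbour had to be listed in the same comparison, which holds 710 genes for overexpression and 373 for RNAi. The share over all listed genes was not computed, so these counts do not show that the genes cluster. CG1124 lies 4094 bases from CG2016, which was 22.0-fold higher in overexpression, and CG11073 lies 2762 bases from CG13502, which was 37.7-fold higher. CG2663 was higher in overexpression while kkv, 7728 bases away, was lower.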
